A study of Homo sapiens with 12 samples.

Results

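The genes described here are 9 genes of MHC class II antigen presentation, chosen by symbol: CIITA, RFX5, HLA-DRA, HLA-DRB1, HLA-DPA1, CD74, HLA-DMA, HLA-DMB and CTSS. All 9 have a row among the 23497 genes of the deposited count table, and all 9 passed the filter on low counts that left 17114 genes for testing. The libraries measured polyadenylated RNA of WM1366, an NRAS-mutant human melanoma cell line, in 4 groups of 3 libraries that bear the replicate numbers 2, 5 and 6, each number being an independent experiment. Resistant daughter lines were grown with a BRAF inhibitor and a MEK inhibitor: EB-resistant cells with encorafenib and binimetinib, VC-resistant cells with vemurafenib and cobimetinib, and DT-resistant cells with dabrafenib and trametinib. The sensitive parent was grown with DMSO, and all cells were seeded 72 h before lysis. Drug resistance, the presence of the drugs and culture history differ together between a resistant line and the parent and cannot be told apart. There is 1 line for each drug pair, so the errors and p values below describe spread between experiments, not between lines. That spread is estimated per gene over all 12 libraries and is not that of the named line alone.

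MHC class II molecules are pairs of an alpha and a beta chain that carry peptides from endosomes to the cell surface, where CD4+ T cells read them. B cells, dendritic cells and macrophages make them constantly, and many other cells, melanoma cells among them, can make them after exposure to interferon-gamma. CIITA is the coactivator that sets class II transcription: it does not bind DNA itself but sits on promoters held by the RFX complex (which contains RFX5), CREB and NF-Y, at sequence elements known as the X and Y boxes. CD74, the invariant chain, fills the groove of new class II molecules, cathepsin S (the CTSS product) trims it, and HLA-DM, a dimer of the HLA-DMA and HLA-DMB products, exchanges its last fragment for a peptide.

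Library totals lay between 40491309 counts (VC-resistant replicate 2) and 54495132 counts (VC-resistant replicate 6), and 0 of 66 pairs of libraries were identical. Of 10 melanoma and melanocyte markers, 6 were in the table, and SOX10, MLANA, TYR and S100B were not analysed here. Those 6 summed to 84.3 to 85.7 CPM in EB-resistant and 83.2 to 102 CPM in VC-resistant libraries. The sum was 83.3 to 91.6 CPM in DT-resistant and 63.7 to 73.0 CPM in sensitive libraries. MITF and PAX3 held nearly all of it, with at least 1869 and 814 counts in every library. The other markers were near 0: PMEL had 9 to 43 counts, TYRP1 0 to 35, DCT 0 to 13 and S100A1 0 to 6. CPM are counts scaled to a common library total. For the professional antigen-presenting cells, 9 of 18 markers of B cells, dendritic cells, macrophages and leukocytes were in the table, and the other 9 were not analysed here. Their summed level was 3.45 to 4.80 CPM for EB-resistant, 1.12 to 1.44 CPM for VC-resistant and 1.38 to 2.47 CPM for DT-resistant libraries, against 13.4 to 15.7 CPM in sensitive libraries. LAPTM5, a lysosomal membrane protein gene of blood cells, held most of that sum in the sensitive libraries. It had 81, 133 and 71 counts for EB-resistant, 32, 23 and 32 counts for VC-resistant and 29, 65 and 61 counts for DT-resistant libraries, against 666, 604 and 544 counts in sensitive libraries. PTPRC, the gene of the pan-leukocyte antigen CD45, had 51, 34 and 24 counts for EB-resistant, 2, 4 and 5 counts for VC-resistant and 1, 5 and 5 counts for DT-resistant libraries, against 1, 0 and 1 counts in sensitive libraries. CD79A was at 0 in the sensitive group, and LYZ and CD53 were at 0 in the EB-resistant group. CSF1R had 3 to 14 counts in resistant libraries, against 29, 31 and 23 in sensitive libraries, and LYZ had 0 to 4, against 7, 10 and 13. ITGAX had 44, 50 and 32 counts in EB-resistant libraries, against 12, 20 and 21 in sensitive libraries. It had 7, 3 and 7 counts in VC-resistant and 0, 1 and 0 in DT-resistant libraries. CD14, CD68, CD53 and CD79A had at most 16 counts in any library. LAPTM5, CSF1R and LYZ were thus highest in sensitive cells, as some class II genes were. PTPRC and ITGAX were highest in EB-resistant cells, and the part of these markers in the results was not tested. In bulk RNA, fewer cells that make a transcript and less of it per cell cannot be told apart.

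The promoters of the members are shown first because they carry the elements on which CIITA and RFX5 act. RefSeq promoter windows on GRCh38.p14, each holding 250 bases before and 50 after a gene start, were matched for 6 of the 9 genes, in 9 windows. The letters CNAGNNACNNNNNATG are the 16-base run with the most letters, 8, shared by the class II chains and CD74 in the printed stretches. The pattern was thus made from these windows to describe the X box, so its presence there is no test. Searched on both strands, it was in 185 of 35116 RefSeq promoter windows (0.527%), among them windows of CD74, HLA-DRB1, HLA-DMB, HLA-DMA and HLA-DPA1, and in 0 windows of RFX5. HLA-DPA1 has 2 windows: the one at the outer RefSeq start, at chr6:33080699-33080998, holds neither this pattern nor CCAAT, and the one at an inner start, at chr6:33073600-33073899, holds the pattern and is the one shown. CCAAT, the core of the Y box bound by NF-Y, was searched on both strands (ATTGG on the opposite one) and was in 34.6% of windows. Both patterns started at most 40 bases apart in 16 of 35116 windows (0.0456%), including those of CD74, HLA-DRB1 and HLA-DMA. The lines below give bases -130 to -1 before these RefSeq starts, 5′ to 3′ on the strand of the gene, which is the minus strand for all 5, with both patterns in capitals. The stretches are chr6:32589849-32589978 for HLA-DRB1, chr6:33073650-33073779 for HLA-DPA1, chr6:32953098-32953227 for HLA-DMA, chr6:32941029-32941158 for HLA-DMB and chr5:150412911-150413040 for CD74.
HLA-DRB1: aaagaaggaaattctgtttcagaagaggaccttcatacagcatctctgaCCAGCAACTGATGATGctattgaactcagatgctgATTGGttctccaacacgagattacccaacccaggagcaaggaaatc
HLA-DPA1: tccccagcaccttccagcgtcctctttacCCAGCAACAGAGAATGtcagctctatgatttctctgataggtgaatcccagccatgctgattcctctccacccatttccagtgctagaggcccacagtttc
HLA-DMA: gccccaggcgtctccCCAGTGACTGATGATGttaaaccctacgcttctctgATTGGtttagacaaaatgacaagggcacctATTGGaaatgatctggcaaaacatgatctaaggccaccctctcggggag
HLA-DMB: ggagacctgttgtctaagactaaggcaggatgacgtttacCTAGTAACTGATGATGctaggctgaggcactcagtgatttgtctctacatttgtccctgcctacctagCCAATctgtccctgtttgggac
CD74: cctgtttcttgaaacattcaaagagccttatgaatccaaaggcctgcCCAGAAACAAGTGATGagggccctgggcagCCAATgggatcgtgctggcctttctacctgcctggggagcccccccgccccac
The X box-like pattern began at base -81 in HLA-DRB1, -101 in HLA-DPA1, -115 in HLA-DMA, -90 in HLA-DMB and -83 in CD74, on the strand of the gene in all 5. The last letters TGATGATG were shared by HLA-DRB1, HLA-DMA and HLA-DMB. CIITA, HLA-DRA and CTSS had no match in the promoter table. A match is a run of letters, not a measured binding site.

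**Figure D1:**
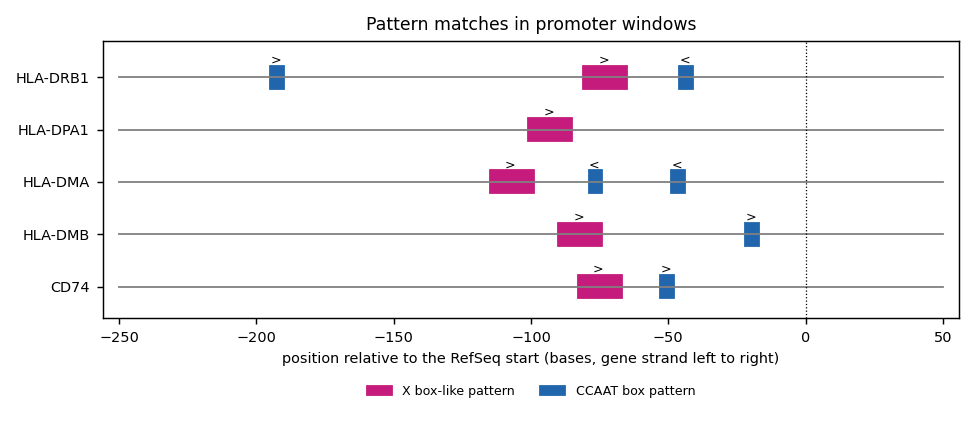
Positions of the X box-like pattern (wide boxes) and of CCAAT (narrow boxes) in 5 promoter windows, in bases relative to the RefSeq start at 0 (for HLA-DPA1 the inner of 2 starts, the window of the outer one holding neither pattern), with the gene strand running left to right. Arrowheads give the strand of the match, and the X box-like pattern lies between bases -115 and -66 in all 5 windows.

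Against sensitive cells, the 3 resistant lines did not move the 9 genes in 1 direction. In EB-resistant cells 1 gene rose (HLA-DMA) and 6 fell (CIITA, CD74, HLA-DRA, HLA-DRB1, HLA-DPA1 and CTSS), at an adjusted p under 0.05 in edgeR's quasi-likelihood test with Benjamini-Hochberg adjustment. Of all 17114 genes, 56.1% were called in that comparison, 28.5% higher and 27.6% lower. In VC-resistant cells 1 gene rose (RFX5) and 7 fell (all others but CD74), where 55.0% of all genes were called, 27.6% higher and 27.4% lower. In DT-resistant cells 3 genes rose (CD74, CTSS and RFX5) and 3 fell (CIITA, HLA-DRA and HLA-DPA1), shares near those of all genes, of which 59.1% were called, 29.8% higher and 29.3% lower. Without DT-resistant replicate 2, 5 genes were lower, HLA-DRB1 and HLA-DMA being called as well. The median log2 fold change (log2FC) of the 9 genes was -1.82 for EB-resistant, -2.22 for VC-resistant and -0.41 for DT-resistant cells, while that of all genes lay within 0.01 of 0 in each comparison. Calls were common over the whole table, so a high share of called members says little by itself. CIITA, HLA-DRA and HLA-DPA1 fell in all 3 lines, as 12.1% of all genes did, and 0 of the 9 rose in all 3, as 12.5% of all genes did. The 3 comparisons share the sensitive libraries.

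**Figure D2:**
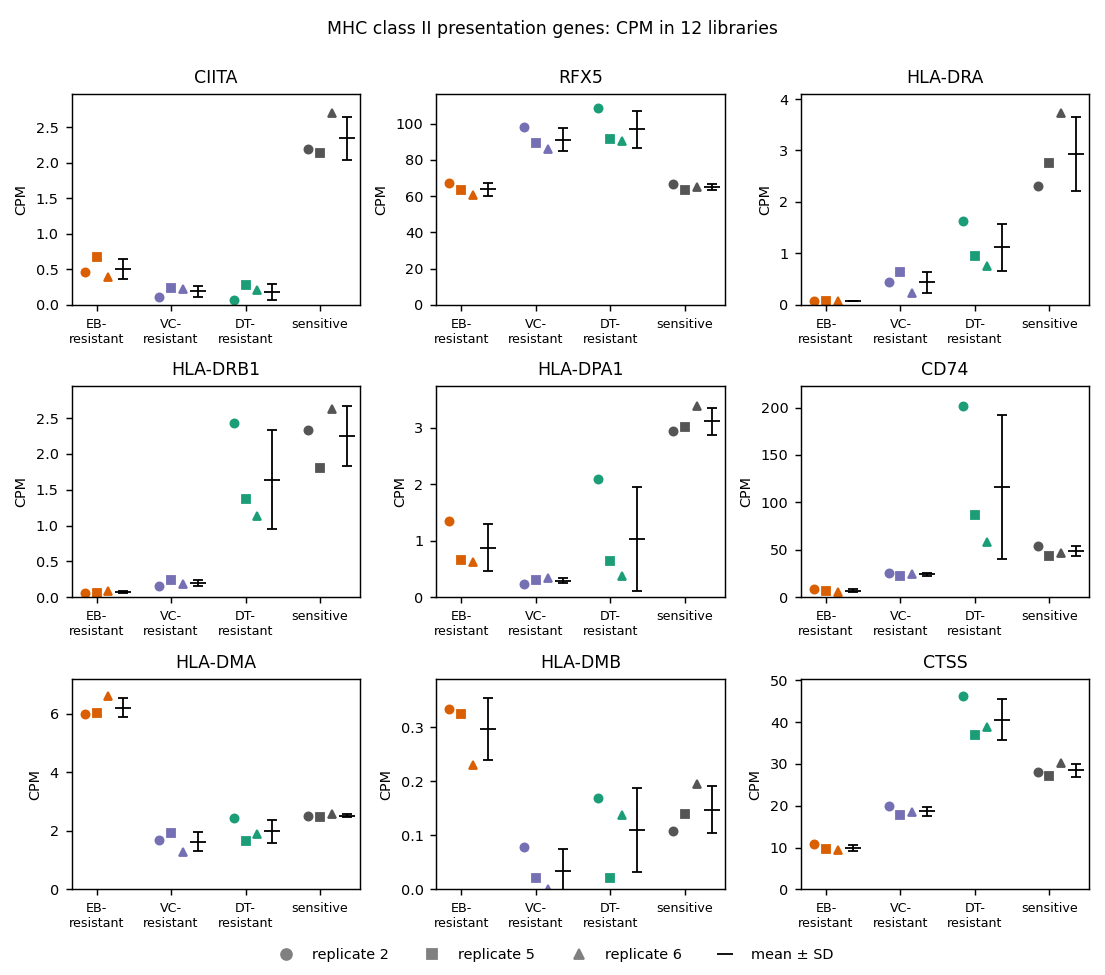
CPM of each gene (vertical axis, from 0, its own scale in every panel) in the 12 libraries, by group along the horizontal axis, with markers for replicates 2, 5 and 6 and a bar for the mean ± SD of 3 libraries. CIITA is highest in all 3 sensitive libraries, HLA-DMA in all 3 EB-resistant libraries, and CD74 spreads widely in the DT-resistant group.

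CIITA, the coactivator, was low in all 3 resistant lines. It had 22, 33 and 19 counts in EB-resistant libraries, 4, 11 and 12 in VC-resistant libraries and 3, 13 and 9 in DT-resistant libraries, against 101, 108 and 124 in sensitive libraries (replicates 2, 5 and 6, here and below). The authors' normalised counts were 18.5 to 31.2 for EB-resistant, 4.9 to 11.1 for VC-resistant and 3.0 to 13.2 for DT-resistant libraries, against 98.5 to 124.5 in sensitive libraries. Every sensitive library lay above every resistant one, and the EB-resistant libraries lay above those of the other resistant lines, which overlapped. CIITA fell in EB-resistant cells (log2FC -2.19 ± 0.33, adjusted p = 4.14e-05), VC-resistant cells (log2FC -3.57 ± 0.38, adjusted p = 1.89e-06) and DT-resistant cells (log2FC -3.65 ± 0.38, adjusted p = 1.27e-06), the error of a log2FC being its standard error. The order of the levels was sensitive, EB-resistant, then VC-resistant and DT-resistant, and the difference within the last pair was not called (adjusted p = 0.946). On hg38 the gene lies at chr16:10866222-10943021 on the plus strand, and its row overlaps DEXI on the opposite strand over 13578 bases. DEXI had 827 to 1374 counts. The libraries were strand-specific, but the strand setting of the counting is not given in the sources used here. Whether reads of CIITA and DEXI in that stretch were kept apart is therefore not known.

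RFX5, the DNA-binding subunit of the RFX complex, was abundant throughout. It had 3217, 3121 and 2874 counts in EB-resistant libraries, 3737, 4050 and 4610 in VC-resistant libraries and 5094, 4142 and 3937 in DT-resistant libraries, against 3068, 3181 and 2984 in sensitive libraries. Scaled for depth, its level was 63.7 ± 3.34 CPM for EB-resistant, 91.1 ± 6.26 CPM for VC-resistant and 96.8 ± 10.1 CPM for DT-resistant cells, against 64.9 ± 1.82 CPM in sensitive cells (SD, n = 3 each). VC-resistant and DT-resistant libraries overlapped each other and stood above all the rest, and EB-resistant libraries overlapped the sensitive ones. The gene rose by a log2FC of 0.49 ± 0.08 in VC-resistant cells (adjusted p = 0.000132) and 0.58 ± 0.08 in DT-resistant cells (adjusted p = 2.39e-05), and its log2FC was -0.03 ± 0.08 in EB-resistant cells (adjusted p = 0.788). RFX5 and CIITA therefore moved in opposite directions in the VC-resistant and DT-resistant lines. RFX5 lies at chr1:151340640-151347326 on the minus strand and overlaps RFX5-AS1 over 360 bases, a gene with 10 to 26 counts.

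HLA-DRA, the alpha chain of HLA-DR, was lowest in EB-resistant cells. It had 4, 4 and 4 counts in EB-resistant libraries, 17, 29 and 12 in VC-resistant libraries and 77, 43 and 33 in DT-resistant libraries, against 106, 139 and 171 in sensitive libraries. The 4 groups did not overlap, in the order sensitive, DT-resistant, VC-resistant and EB-resistant, and each neighbouring pair was called. HLA-DRA fell in EB-resistant cells (log2FC -5.10 ± 0.45, adjusted p = 1.64e-07), VC-resistant cells (log2FC -2.76 ± 0.36, adjusted p = 1.18e-05) and DT-resistant cells (log2FC -1.39 ± 0.32, adjusted p = 0.00159). The gene lies at chr6:32439878-32445046 on the plus strand. In EB-resistant libraries it did not reach 0.219 CPM, the level that the filter on low counts asked for, and it was tested through the other groups.

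HLA-DRB1, the main beta chain that pairs with HLA-DRA, had 3, 3 and 4 counts in EB-resistant libraries, 6, 11 and 10 in VC-resistant libraries and 114, 62 and 49 in DT-resistant libraries, against 107, 91 and 121 in sensitive libraries. DT-resistant replicate 2 lay among the sensitive libraries, the other 2 DT-resistant libraries lay below them, and both other lines lay far lower. HLA-DRB1 fell in EB-resistant cells (log2FC -4.97 ± 0.40, adjusted p = 7.1e-08) and VC-resistant cells (log2FC -3.50 ± 0.35, adjusted p = 9.45e-07). In DT-resistant cells its log2FC was -0.45 ± 0.27 (adjusted p = 0.161). Without DT-resistant replicate 2 that value was -0.84 (adjusted p = 0.0121), a call. HLA-DRB1 reached the filter level of 0.219 CPM in 0 EB-resistant libraries and in 1 VC-resistant library. It was tested through the DT-resistant and sensitive groups, where it is highest, and its calls here and below carry that selection. The second beta chain gene of HLA-DR in the table, HLA-DRB5, had 0, 0 and 0 counts for EB-resistant, 0, 0 and 1 for VC-resistant and 2, 0 and 0 for DT-resistant libraries, against 5, 3 and 6 in sensitive libraries, too few to test. HLA genes are near copies of each other and vary between people, so reads can be lost or moved between them in counting, and the split between HLA-DRB genes is uncertain.

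HLA-DPA1, the alpha chain of HLA-DP, had 65, 32 and 30 counts in EB-resistant libraries, 9, 14 and 18 in VC-resistant libraries and 98, 29 and 16 in DT-resistant libraries, against 135, 152 and 156 in sensitive libraries. All resistant libraries lay below all sensitive ones, with EB-resistant and DT-resistant libraries overlapping. HLA-DPA1 fell in EB-resistant cells (log2FC -1.82 ± 0.47, adjusted p = 0.00453), VC-resistant cells (log2FC -3.38 ± 0.54, adjusted p = 0.000152) and DT-resistant cells (log2FC -1.58 ± 0.46, adjusted p = 0.00951). Without DT-resistant replicate 2, the DT-resistant log2FC was -2.61 (adjusted p = 1.15e-05).

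HLA-DPB1, the beta chain that pairs with HLA-DPA1, was highest in EB-resistant cells. It had 45, 53 and 40 counts in EB-resistant libraries, 9, 3 and 6 in VC-resistant libraries and 37, 14 and 11 in DT-resistant libraries, against 26, 27 and 24 in sensitive libraries. EB-resistant libraries lay above the sensitive ones and VC-resistant libraries below, while those of DT-resistant cells lay on either side. Its log2FC was 0.81 ± 0.39 in EB-resistant cells (adjusted p = 0.0855) and -0.26 ± 0.41 in DT-resistant cells (adjusted p = 0.615), and it fell in VC-resistant cells (log2FC -2.00 ± 0.49, adjusted p = 0.00291). Per kilobase of gene length, the ratio of HLA-DPA1 to HLA-DPB1 levels was 0.549 to 1.31 for EB-resistant, 0.908 to 4.24 for VC-resistant and 1.32 to 2.41 for DT-resistant libraries, against 4.72 to 5.91 in sensitive libraries. The ratio was thus lower in each of the 9 resistant libraries than in any sensitive one. In VC-resistant libraries it rests on only 9, 3 and 6 HLA-DPB1 counts. The pair lies head to head on opposite strands at chr6:33064569-33080775 (HLA-DPA1) and overlaps over 4786 bases. Reads there are kept apart only if the strand-specific libraries were counted by strand, a setting that is not given.

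CD74, which encodes the invariant chain, was second to RFX5 in level among the 9 genes in sensitive cells, at 7.88 ± 0.863 CPM per kilobase of gene length, RFX5 being at 14.3 ± 0.399 CPM per kilobase. It had 392, 340 and 273 counts in EB-resistant libraries, 970, 1027 and 1284 in VC-resistant libraries and 9492, 3942 and 2537 in DT-resistant libraries, against 2486, 2208 and 2154 in sensitive libraries. The authors' normalised counts were 265.7 to 377.9 for EB-resistant, 1035.6 to 1179.9 for VC-resistant and 2699.2 to 9365.0 for DT-resistant libraries, against 2014.8 to 2478.0 in sensitive libraries. The 4 groups did not overlap: DT-resistant libraries were highest, then the sensitive, VC-resistant and EB-resistant ones.

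CD74 fell in EB-resistant cells (6.94 ± 1.22 CPM, against 48.3 ± 5.28 CPM in sensitive cells, log2FC -2.80 ± 0.42, adjusted p = 0.000312) and rose in DT-resistant cells (116 ± 76.0 CPM, log2FC 1.26 ± 0.38, adjusted p = 0.0173). DT-resistant replicate 2 held 2.78 times the mean of the other 2 libraries of its group, and without it the log2FC was 0.60 (adjusted p = 0.00611). Leaving out sensitive replicate 5 or 6 instead ended the call (adjusted p = 0.0583 and 0.0572). In VC-resistant cells CD74 stood at 24.0 ± 1.42 CPM, with a log2FC of -1.01 ± 0.38 that just missed the threshold (adjusted p = 0.0501). All 12 libraries share 1 estimate of spread per gene, and in a fit of the 6 VC-resistant and sensitive libraries alone the same log2FC passed (adjusted p = 2.03e-05), as it did without DT-resistant replicate 2 (adjusted p = 6.16e-05). CD74 lies at chr5:150400041-150412969 on the minus strand and overlaps TCOF1 over 268 bases.

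HLA-DMA, the alpha chain of the peptide exchanger HLA-DM, was the 1 member higher in EB-resistant cells. It had 288, 297 and 314 counts in EB-resistant libraries, 64, 88 and 69 in VC-resistant libraries and 114, 75 and 82 in DT-resistant libraries, against 116, 125 and 118 in sensitive libraries. EB-resistant libraries stood far above every other library, and VC-resistant and DT-resistant libraries overlapped each other below the sensitive ones. HLA-DMA rose to 6.22 ± 0.331 CPM in EB-resistant cells, against 2.52 ± 0.0431 CPM in sensitive cells (log2FC 1.30 ± 0.18, adjusted p = 1.65e-05). It fell in VC-resistant cells (log2FC -0.63 ± 0.19, adjusted p = 0.0107), a call lost without VC-resistant replicate 6 (adjusted p = 0.0674). In DT-resistant cells its log2FC was -0.34 ± 0.19 (adjusted p = 0.128), and -0.50 without DT-resistant replicate 2 (adjusted p = 0.0431). The annotated gene, at chr6:32948613-32969094 on the minus strand, overlaps BRD2 on the opposite strand over 501 bases. BRD2 had 7605 to 12760 counts and rose in EB-resistant cells by less (log2FC 0.34, adjusted p = 0.00257).

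HLA-DMB, the beta chain of HLA-DM, was close to the limit of detection. It had 16, 16 and 11 counts in EB-resistant libraries, 3, 1 and 0 in VC-resistant libraries and 8, 1 and 6 in DT-resistant libraries, against 5, 7 and 9 in sensitive libraries. Only the EB-resistant libraries reached the filter level of 0.219 CPM, so the gene was tested because of the group where it is highest, and the calls below carry that selection. Its log2FC was 0.99 ± 0.57 in EB-resistant cells (adjusted p = 0.151) and -0.41 ± 0.66 in DT-resistant cells (adjusted p = 0.613). It fell in VC-resistant cells (log2FC -2.22 ± 0.84, adjusted p = 0.0354). That call was lost without VC-resistant replicate 5 or 6 or sensitive replicate 5 or 6 (adjusted p = 0.0651 to 0.143), and without VC-resistant replicate 2 the log2FC was -3.55. The gene lies at chr6:32934629-32941028.

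CTSS, the gene of cathepsin S, followed the same order as CD74 with far less spread. It had 520, 471 and 450 counts in EB-resistant libraries, 757, 808 and 988 in VC-resistant libraries and 2170, 1671 and 1683 in DT-resistant libraries, against 1286, 1368 and 1391 in sensitive libraries. The 4 groups did not overlap, and each neighbouring pair in the order was called. CTSS fell to 9.96 ± 0.764 CPM in EB-resistant cells and to 18.7 ± 1.06 CPM in VC-resistant cells and rose to 40.6 ± 4.93 CPM in DT-resistant cells, against 28.5 ± 1.61 CPM in sensitive cells. The log2FC was -1.51 ± 0.10 in EB-resistant cells (adjusted p = 1.11e-08), -0.61 ± 0.10 in VC-resistant cells (adjusted p = 0.000121) and 0.51 ± 0.10 in DT-resistant cells (adjusted p = 0.000404). It lies at chr1:150730079-150765957 on the minus strand.

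**Figure D3:**
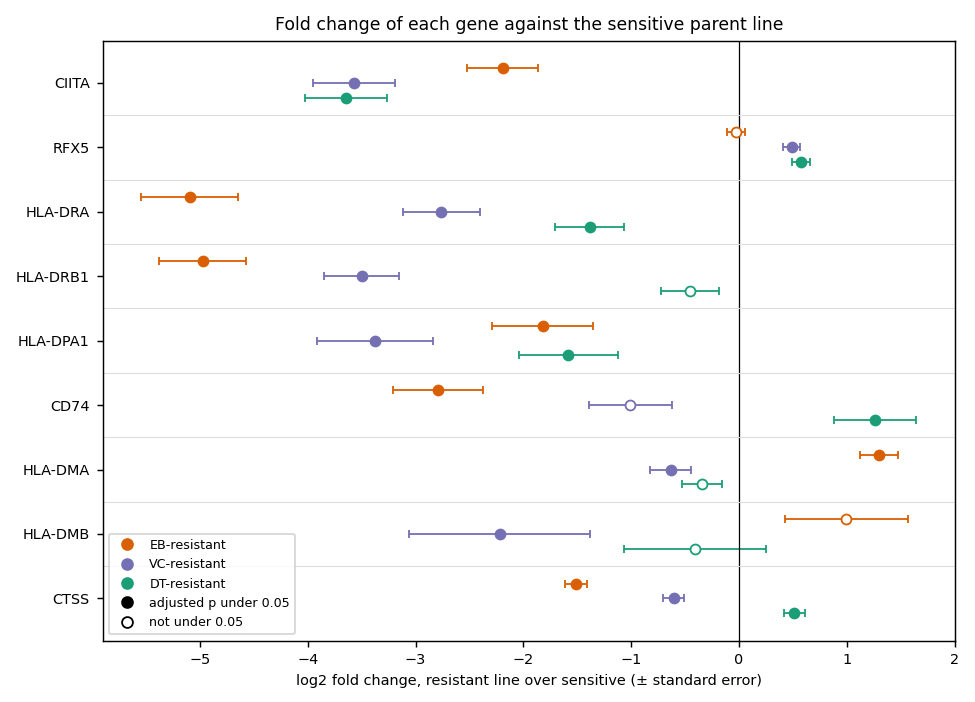
Log2 fold change of each gene in each resistant line over the sensitive line (horizontal axis, ± standard error), filled where the adjusted p was under 0.05. CIITA, HLA-DRA and HLA-DPA1 lie left of 0 in all 3 lines, whereas CD74 and CTSS lie left of 0 in EB-resistant and VC-resistant cells and right of 0 in DT-resistant cells.

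Between the resistant lines, some of the genes that CIITA acts on moved with it and others moved against it. CIITA had 3 to 33 counts in the resistant libraries, and its part in these differences was not tested. In EB-resistant over VC-resistant cells CIITA was higher (log2FC 1.38 ± 0.42, adjusted p = 0.0105), whereas HLA-DRA (log2FC -2.34 ± 0.53, adjusted p = 0.00149), HLA-DRB1 (log2FC -1.47 ± 0.54, adjusted p = 0.0278) and CD74 (log2FC -1.79 ± 0.41, adjusted p = 0.00432) were lower. HLA-DMA (log2FC 1.93 ± 0.19, adjusted p = 5.14e-07) and HLA-DPA1 (log2FC 1.56 ± 0.57, adjusted p = 0.0324) were higher with CIITA. HLA-DMB was called higher too (log2FC 3.21 ± 0.76, adjusted p = 0.00193). It passed the filter on low counts only through the EB-resistant libraries, where it is highest, so its call carries that selection. HLA-DRB1 passed through the DT-resistant and sensitive libraries, neither of them in this comparison. All 9 genes were called between these lines, 4 higher and 5 lower, with 58.4% of all genes called, 29.6% higher and 28.8% lower. The low-count calls were the least stable here. HLA-DRB1 was no longer called when EB-resistant replicates 2 or 5, or else VC-resistant replicates 5 or 6, were left out (adjusted p = 0.0504 to 0.0858), nor HLA-DPA1 without EB-resistant replicate 2 or any VC-resistant library (adjusted p = 0.0698 to 0.143), nor CIITA without EB-resistant replicate 5 (adjusted p = 0.0546). The log2FC of HLA-DMB was 4.55 without VC-resistant replicate 2 and 2.54 without VC-resistant replicate 6.

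Between EB-resistant and DT-resistant cells, 2 genes were higher in EB-resistant cells and 5 were lower, with 57.2% of all genes called, 28.4% higher and 28.8% lower. CIITA (log2FC 1.45 ± 0.42, adjusted p = 0.00844) and HLA-DMA (log2FC 1.64 ± 0.18, adjusted p = 2.36e-06) were the higher ones. HLA-DRB1 differed most (log2FC -4.52 ± 0.41, adjusted p = 3.27e-07), ahead of CD74 (log2FC -4.06 ± 0.43, adjusted p = 3.59e-05), HLA-DRA (log2FC -3.71 ± 0.48, adjusted p = 9.66e-06), CTSS (log2FC -2.03 ± 0.10, adjusted p = 1.16e-09) and RFX5 (log2FC -0.60 ± 0.08, adjusted p = 1.59e-05). Without DT-resistant replicate 2 the CD74 difference was -3.39. HLA-DMB had a log2FC of 1.41 ± 0.60 (adjusted p = 0.0567), which passed the threshold when VC-resistant replicates 2 or 6, or DT-resistant replicate 2, were left out (adjusted p = 0.0445 to 0.0495). These HLA-DMB values carry the same selection through the EB-resistant libraries.

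VC-resistant and DT-resistant cells were the closest pair over the whole table, with 15.8% of all genes called, 7.08% higher and 8.71% lower in VC-resistant cells. Even so 5 of the 9 genes were lower in VC-resistant cells and 0 were higher. The 5 were HLA-DRB1 (log2FC -3.05 ± 0.35, adjusted p = 2.91e-05), CD74 (log2FC -2.27 ± 0.39, adjusted p = 0.00439), HLA-DPA1 (log2FC -1.80 ± 0.57, adjusted p = 0.0484), HLA-DRA (log2FC -1.38 ± 0.37, adjusted p = 0.0189) and CTSS (log2FC -1.12 ± 0.10, adjusted p = 2.89e-06). CIITA had a log2FC of 0.08 ± 0.49 between them (adjusted p = 0.946) at 25 to 27 counts summed over the 3 libraries of a line, so a moderate difference in CIITA was not detectable at this depth. Without DT-resistant replicate 2, 3 genes were lower: the CD74 difference was -1.60, and HLA-DRA (log2FC -0.99, adjusted p = 0.093) and HLA-DPA1 (log2FC -0.76, adjusted p = 0.273) were not called. Leaving out VC-resistant replicate 6 likewise ended the HLA-DRA call (adjusted p = 0.0998), and 9 of the 12 single-library omissions ended that of HLA-DPA1. The values for these 2 lines come from a fit that does not pair libraries by replicate number. A fit with that number as a block changed no call of the 9 genes between them.

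One library set much of the spread in DT-resistant cells. DT-resistant replicate 2 was the highest of its group for 8 of the 9 genes and the lowest for CIITA. Relative to the mean CPM of the other 2 DT-resistant libraries it held 4.14 times the HLA-DPA1, 2.78 times the CD74, 2.12 times the HLA-DMB, 1.94 times the HLA-DRB1, 1.92 times the HLA-DRA, 1.37 times the HLA-DMA and 0.259 times the CIITA level. MHC class I genes were high there as well: the ratio was 1.85 for HLA-B, 1.71 for HLA-C and 1.62 for B2M. IRF1, an interferon-induced transcription factor, had a ratio of 1.11 there and stood apart in EB-resistant replicate 2 instead, with 2734 counts, against 853 and 815 counts in the other EB-resistant libraries. HLA-DPA1 was 2.11 times the mean of the others in EB-resistant replicate 2. The part of the class I genes and IRF1 in the spread of the class II genes was not tested. Replicate 2 was also the highest library of each other group for HLA-B, HLA-C, B2M, CD74 and RFX5, at ratios of 1.04 to 1.49. Over the 9 genes, replicate 2 was the highest for 5 and the lowest for 1 in EB-resistant cells. In VC-resistant cells these numbers were 4 and 3, and in sensitive cells 2 and 3. The part of the experiment in this spread was not tested.

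**Figure D4:**
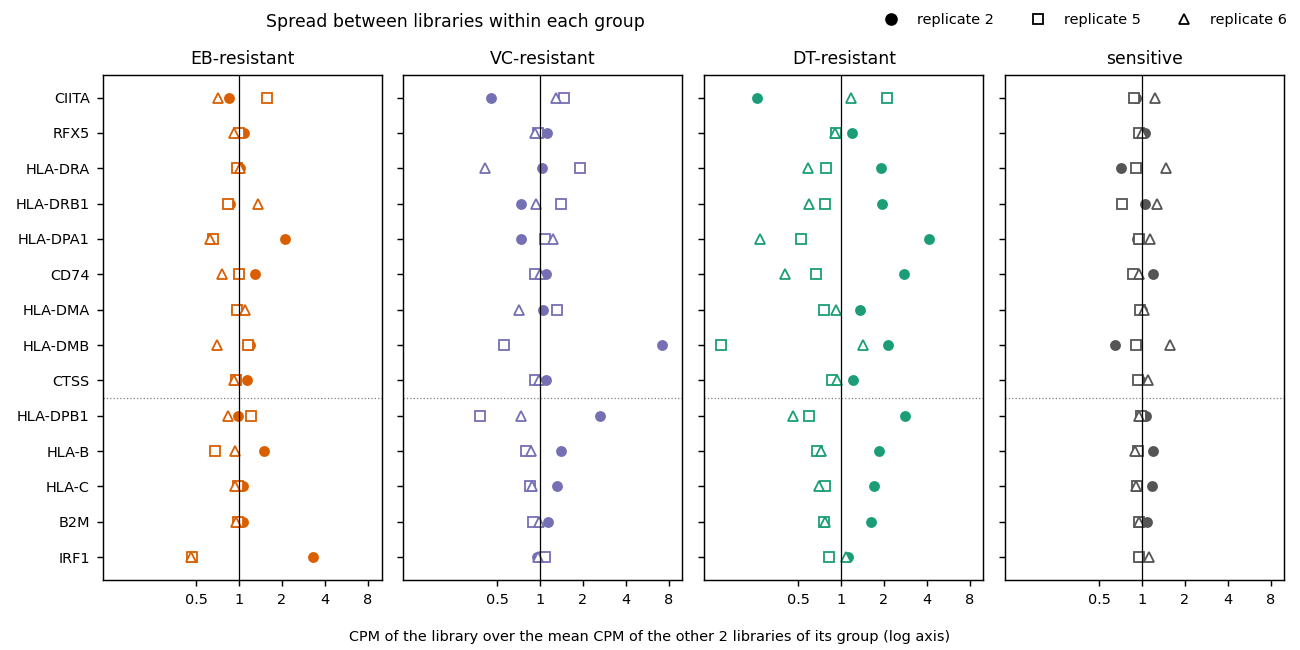
CPM of each library over the mean CPM of the other 2 libraries of its group (log axis), for the 9 genes above the dotted line and for HLA-DPB1, MHC class I genes and IRF1 under it. In the DT-resistant group replicate 2 (filled circles) lies right of 1 for every gene but CIITA. VC-resistant replicate 6 had 0 HLA-DMB counts and has no point.

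The proportions between partner genes also differed between groups. Per kilobase of gene length, the ratio of CD74 to HLA-DRA levels was 13.9 to 19.9 for EB-resistant, 7.20 to 21.7 for VC-resistant and 15.6 to 25.0 for DT-resistant libraries, against 2.56 to 4.77 in sensitive libraries, so every resistant library held more CD74 per HLA-DRA than any sensitive one. For HLA-DRA to HLA-DRB1 the ratio was 0.988 to 1.32 for EB-resistant, 1.19 to 2.80 for VC-resistant and 0.665 to 0.685 for DT-resistant libraries, against 0.979 to 1.51 in sensitive libraries. The 3 DT-resistant values lay close together and under all others, while the EB-resistant ratios rest on 3 or 4 counts of each gene. The ratio of HLA-DMA to HLA-DRA was 35.5 to 38.8 for EB-resistant, 1.50 to 2.84 for VC-resistant and 0.731 to 1.23 for DT-resistant libraries, against 0.341 to 0.540 in sensitive libraries. The EB-resistant ratios to HLA-DRA, of CD74 and HLA-DMA alike, rest on 4 HLA-DRA counts in each library. All these ratios are descriptions of the libraries and were not tested.

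The rest of the class II pathway was mixed in direction. Of 21 further genes listed (other class II chains, RFX, NF-Y and CREB subunits, lysosomal proteases and the ubiquitin ligases of class II), 18 were in the table and 15 were tested. In EB-resistant cells 4 rose and 3 fell (median log2FC 0.14), in VC-resistant cells 4 rose and 6 fell (median log2FC -0.08), and in DT-resistant cells 4 rose and 4 fell (median log2FC -0.22), against the shares of all genes given above. MARCHF1, a ubiquitin ligase that removes class II molecules from the cell surface, rose in all 3 lines. It had 106, 125 and 86 counts for EB-resistant, 27, 52 and 45 for VC-resistant and 68, 118 and 133 for DT-resistant libraries, against 10, 7 and 5 in sensitive libraries, with no overlap between any resistant library and a sensitive one. Its log2FC was 3.80 ± 0.37 for EB-resistant (adjusted p = 4.75e-07), 2.52 ± 0.39 for VC-resistant (adjusted p = 7.36e-05) and 3.91 ± 0.37 for DT-resistant cells (adjusted p = 4.29e-07). MARCHF8, a related ligase, fell in all 3 (log2FC -0.66 ± 0.11 for EB-resistant, -0.82 ± 0.11 for VC-resistant and -1.04 ± 0.11 for DT-resistant cells). CTSD, a lysosomal aspartic protease, rose in all 3 (log2FC 0.94 ± 0.09 for EB-resistant, 0.36 ± 0.09 for VC-resistant and 0.57 ± 0.09 for DT-resistant cells), as did CTSB. Among the other subunits that bind the X and Y boxes, RFXANK, RFXAP and NFYA were called in 0 of the 3 comparisons, NFYB fell in EB-resistant cells, and NFYC fell in VC-resistant and DT-resistant cells. CREB1 rose in EB-resistant cells (70.9 CPM) and fell in VC-resistant cells (48.3 CPM), against 56.5 CPM in sensitive cells. In DT-resistant cells CREB1 was not called (51.7 CPM). HLA-DOB, a chain of the inhibitor of HLA-DM, had 8, 2 and 3 counts for EB-resistant, 7, 6 and 11 for VC-resistant and 10, 3 and 6 for DT-resistant libraries, against 1, 3 and 9 in sensitive libraries, with overlapping groups and no test.

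Upstream of CIITA, 14 of 15 listed genes of interferon-gamma signalling and CIITA control were tested. In EB-resistant cells 5 rose and 4 fell (median log2FC 0.12), in VC-resistant cells 4 rose and 2 fell (0.08), and in DT-resistant cells 7 rose and 3 fell (0.30). Of all genes, 28.5% rose and 27.6% fell in EB-resistant cells, 27.6% and 27.4% in VC-resistant cells and 29.8% and 29.3% in DT-resistant cells. IFNGR1, the ligand-binding chain of the interferon-gamma receptor, rose in all 3 lines, with 4152, 4660 and 4573 counts for EB-resistant, 2384, 2278 and 2888 for VC-resistant and 4120, 3360 and 3351 for DT-resistant libraries, against 1657, 1834 and 1810 in sensitive libraries. Its libraries did not overlap between any resistant line and the parent (log2FC 1.31 ± 0.09 for EB-resistant, 0.57 ± 0.09 for VC-resistant and 1.10 ± 0.09 for DT-resistant cells). IFNGR2, the other chain of that receptor, fell in EB-resistant cells, with 971, 982 and 833 counts against 1993, 1824 and 1764 in sensitive libraries. It was not called in VC-resistant cells and rose in DT-resistant cells, with 2970, 2961 and 2672 counts. IRF2, a transcription factor that can act on the CIITA promoter, rose in all 3 (log2FC 0.82 ± 0.10 for EB-resistant, 0.78 ± 0.10 for VC-resistant and 0.90 ± 0.10 for DT-resistant cells). EZH2, the histone H3 lysine methyltransferase of Polycomb repression, fell in all 3 (log2FC -0.52 ± 0.18, adjusted p = 0.0219 for EB-resistant, log2FC -0.96 ± 0.18, adjusted p = 0.000468 for VC-resistant and log2FC -1.36 ± 0.18, adjusted p = 2.35e-05 for DT-resistant cells).

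MHC class I genes, which present peptides to CD8+ T cells, moved up where they moved at all. Of 11 listed and tested, 8 rose for EB-resistant, 7 for VC-resistant and 10 for DT-resistant cells, and 0 fell in any line, where 28.5% of all genes rose for EB-resistant, 27.6% for VC-resistant and 29.8% for DT-resistant cells and 27.6%, 27.4% and 29.3% fell. Their median log2FC was 0.60 for EB-resistant, 0.65 for VC-resistant and 1.33 for DT-resistant cells, beside a median of all genes within 0.01 of 0. PSMB9, an immunoproteasome subunit, had 1547, 1563 and 1494 counts for EB-resistant, 1359, 1428 and 1805 for VC-resistant and 2567, 1878 and 1791 for DT-resistant libraries, against 833, 932 and 910 in sensitive libraries. Every resistant library was above every sensitive one (log2FC 0.76 ± 0.10 for EB-resistant, 0.84 ± 0.10 for VC-resistant and 1.28 ± 0.10 for DT-resistant cells). HLA-E, a nonclassical class I chain, rose in all 3 lines (log2FC 0.60 ± 0.11 for EB-resistant, 0.55 ± 0.11 for VC-resistant and 0.72 ± 0.11 for DT-resistant cells). So did TAP1, a subunit of the peptide transporter (log2FC 0.57 ± 0.12 for EB-resistant, 0.79 ± 0.12 for VC-resistant and 1.55 ± 0.13 for DT-resistant cells). In position the class I machinery sits among the class II genes: between chr6:32439878 and chr6:33089696 the table holds 15 genes, of which 12 were tested. Of the 6 tested there that are not class II chains, 4 rose for EB-resistant, 2 for VC-resistant and 4 for DT-resistant cells. Of these 6, 0 fell, and the count in VC-resistant cells was near the 27.6% of all genes that rose there. The class II chains of the region were mixed: HLA-DRA and HLA-DPA1 fell in all 3 lines, and HLA-DRB1 fell in EB-resistant and VC-resistant cells. HLA-DPB1 and HLA-DMB were called only in VC-resistant cells, as lower. HLA-DMA rose in EB-resistant and fell in VC-resistant cells.

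**Figure D5:**
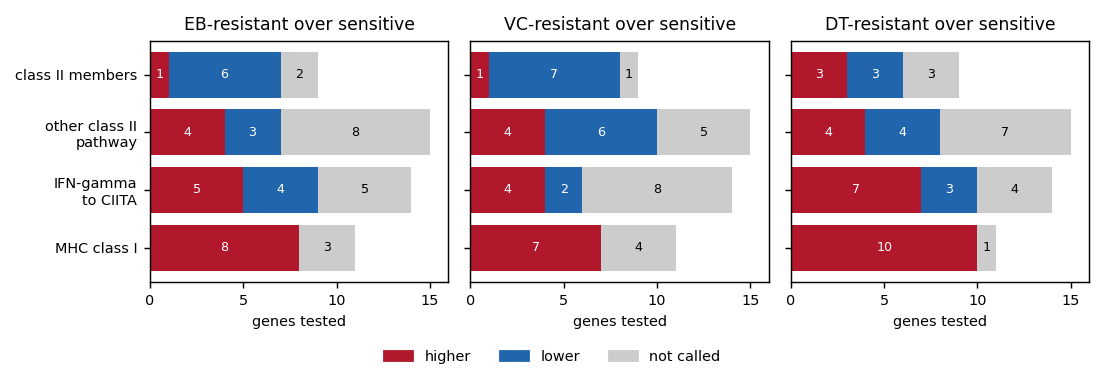
Number of genes higher, lower or not called against sensitive cells (adjusted p under 0.05; horizontal axis, genes tested) in each resistant line, for the 9 class II genes and 3 related lists. MHC class I genes show no lower call in any line, whereas the class II genes show 6, 7 and 3 in EB-resistant, VC-resistant and DT-resistant cells.

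Some other genes shared the members' pattern over the 12 libraries, by Pearson correlation of log2 CPM over genes with enough signal. The points share 4 groups and their library scaling, so the values describe likeness of level. Among those most like CIITA were MED22 (r = 0.986) and CSTF2T (r = 0.985). Most like CD74 were MED10 (r = 0.982), CTSS (r = 0.980) and the carboxypeptidase M gene (r = 0.977), and MED10 and the carboxypeptidase M gene were also most like CTSS (r = 0.987 and 0.986). HLA-DRA was most like G6PC3 (r = 0.976), TENT4A (r = 0.975) and LARP4B (r = 0.972). HLA-DMA was most like C11orf68 (r = 0.986), LSS (r = 0.974), which encodes lanosterol synthase, and PLEKHS1 (r = 0.973).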

How the data were processed

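Per the labels' protocols, polyadenylated RNA was made into strand-specific libraries and sequenced as paired ends. Per the submitters' processing notes, tools were bcl2fastq 2.20.0, STAR 2.7.10b, featureCounts 2.0.1 and DESeq2 1.38.3, with the build hg38. Drug doses, annotation release and the strand setting of featureCounts were not given in the sources used. The authors deposited whole-number read counts per gene and, as a signal, normalised counts that equal the count divided by 1 factor per library to within 0.142. All 12 libraries were matched by their labels and 0 columns were left over.

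Genes were kept by filterByExpr with the 4 groups (at least 10 counts at the median library total in 3 libraries, 15 in all). After TMM scaling, edgeR 4.0.16 (with limma 3.58.1 in R 4.3.3) fitted its quasi-likelihood model over the 12 libraries with 1 coefficient per group, which left 8 residual degrees of freedom. The 6 pairs of groups were tested, with Benjamini-Hochberg adjustment over the 17114 genes and a threshold of 0.05. Standard errors are the log2 fold change divided by the root of the F statistic. CPM use TMM-scaled totals. The scripts were tested on simulated data.

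The 9 genes and the related lists were chosen with earlier results of these data known. Named from the lists were genes called in the same direction in all 3 lines, up to 3 per list by adjusted p. Class II chains with at least 3 counts in a library were named too. HLA-DPB1, the overlapping genes, IRF1, NFYB, CREB1, IFNGR2 and CTSB were named beside them for a result they touch. Likeness was ranked for CIITA, CD74, HLA-DRA, HLA-DMA and CTSS, at 3 genes each, of which 1 is not reported here. Alternatives were RLE size factors, DESeq2 1.42.0, no filter, a filter of 1 CPM in 3 libraries, a replicate block, fits of 2 groups alone and leaving out each library. Same-numbered libraries of VC-resistant and DT-resistant cells deviated together (correlations of 0.337, 0.151 and 0.195), all above 0.1, which pairs these 2 lines by number. The main fit does not use that pairing, and the replicate block does. No other pair of groups passed 0.1 at all 3 numbers. Endothelial markers, a further check of identity, summed to 0.903 to 1.30 CPM in EB-resistant and 2.22 to 3.61 CPM in VC-resistant libraries. The sum was 4.54 to 7.28 CPM in DT-resistant and 1.43 to 1.78 CPM in sensitive libraries. VWF held most of it in resistant libraries, with 341, 288 and 193 counts in DT-resistant against 56, 51 and 33 in sensitive libraries. PECAM1 (1, 3 and 1 against 21, 18 and 30) and CDH5 (0, 1 and 3 against 5, 3 and 5) went the other way. Plots come from matplotlib 3.10.9 (Python 3.11.15).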

Additional observations from a re-analysis of the deposited data

Results flagged for a closer look

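In 4 cases 2 resistant lines moved a gene in opposite directions from the same parent, both lines' own changes were called, and the difference between the lines was called as well (edgeR quasi-likelihood test, Benjamini-Hochberg adjustment). CD74 differed by a log2FC of -4.06 between EB-resistant and DT-resistant cells (adjusted p = 3.59e-05). HLA-DMA differed by 1.93 between EB-resistant and VC-resistant cells (adjusted p = 5.14e-07). CTSS differed by -2.03 between EB-resistant and DT-resistant cells (adjusted p = 1.16e-09) and by -1.12 between VC-resistant and DT-resistant cells (adjusted p = 2.89e-06). The rise of CD74 in DT-resistant over sensitive cells was not called without sensitive replicate 5 or 6 (adjusted p = 0.0583 and 0.0572), and without DT-resistant replicate 2 the difference between EB-resistant and DT-resistant cells was -3.39. The fall of HLA-DMA in VC-resistant cells was not called without VC-resistant replicate 6 (adjusted p = 0.0674).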

How the results depend on the processing

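Over 54 results (9 genes in 6 comparisons) and 18 alternative settings, 962 values could be fitted, of which 913 kept direction and side of the threshold, 30 lost a call, 12 gained one and 7 changed sign; 37 of the 54 results kept both under every alternative. The filter of 1 CPM in 3 libraries left no value for HLA-DMB, and fits of 2 groups alone left none for HLA-DMB without the EB-resistant group and for HLA-DRB1 between EB-resistant and VC-resistant cells. RLE size factors changed the sign of 0 members. Genes lower in DT-resistant against sensitive cells numbered 3 to 5 when single libraries were left out (5 without DT-resistant replicate 2), and those lower in VC-resistant against DT-resistant cells 3 to 5, and 3 in the fit of these 2 groups alone. The sign changes were in values that were not called. When single libraries were left out, RFX5 in EB-resistant against sensitive cells ran from -0.055 to 0.022 (above 0 without EB-resistant replicate 6) and HLA-DMB in DT-resistant against sensitive cells from -0.87 to 0.066 (above 0 without DT-resistant replicate 5). HLA-DPA1 in EB-resistant against DT-resistant cells ran from -0.69 to 0.79 (above 0 without DT-resistant replicate 2). In VC-resistant against DT-resistant cells CIITA ran from -0.34 to 0.54, being -0.10 and -0.05 without VC-resistant replicates 5 and 6 and -0.34 without DT-resistant replicate 2, and RFX5 from -0.15 to 0.0029 (above 0 without DT-resistant replicate 2). The cause was not tested. With the replicate block CD74 was called in VC-resistant against sensitive cells (log2FC -0.995, adjusted p = 0.0325), so that 8 genes were lower there; it changed no other call of the 9 genes. DESeq2 (adjusted p = 0.0319) and the filter of 1 CPM (adjusted p = 0.0316) called CD74 there too, and over its alternatives that adjusted p ran from 2.03e-05 to 0.127. Counts under about 20 per library limit HLA-DMB in all 4 groups, CIITA in VC-resistant and DT-resistant cells and HLA-DRA in EB-resistant cells. The same limit holds for HLA-DRB1 in EB-resistant and VC-resistant cells and for HLA-DPA1 in VC-resistant cells. HLA-DRA was near it in VC-resistant cells, at 17, 29 and 12 counts. Single libraries were also under 20 for CIITA in EB-resistant cells (19) and HLA-DPA1 in DT-resistant cells (16).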
